A study of Mus musculus with 30 samples.

Results

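Motile cilia are the beating hairs of the ependymal cells that line the brain ventricles. Their core, the axoneme, is a ring of microtubule doublets around a central pair, bent by outer and inner dynein arms and paced by radial spokes. FOXJ1 is the transcription factor that switches on the motile cilia programme, and the epithelium of the choroid plexus, which makes cerebrospinal fluid, also carries tufts of cilia and expresses FOXJ1. The genes described here were 33 named motile cilia genes, chosen as a module with Foxj1 and Ccdc153 as its markers, and 31 of them had a row among the 24883 rows of the expression table. Dnah3 and Dnah12, a pair of inner arm dynein heavy chains, had no row.

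Expression was measured by RNA-seq in 30 male, wild-type C57BL/6J mice, young adults, with 1 library for each mouse and 6 mice in each of 5 conditions. VEH-HC mice received vehicle (jetPEI, the transfection reagent, alone) and stayed in the home cage with handling only, VEH-T10 mice received vehicle and 10 min of threshold object location memory training, and VEH-T3 mice received vehicle and 3 min of subthreshold training. Y397F-T10 mice received a plasmid for the CREST Y397F mutant and 10 min of training, and Y397D-T3 mice received one for the CREST Y397D mutant and 3 min of training. The labels call Y397F phospho-null and Y397D phospho-mimetic. The authors, who could not detect phosphorylation of Y397, speak of point mutants only. The infusions into the dorsal hippocampus took place 3 days before training, all trained mice were taken 1 h after it, and the plasmids carried a miniCaMK2 promoter, which is meant for excitatory neurons rather than for ciliated cells. The labels give the tissue as dorsal hippocampus and the methods as dorsal CA1, and in such bulk tissue fewer ciliated cells and less RNA for each ciliated cell cannot be told apart.

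The promoters of these genes were read first for the X-box, the element bound by RFX factors, which act beside FOXJ1 at cilia genes. Of the 31 genes, 28 had a promoter in the RefSeq set (GRCm38, the same assembly as mm10), from 250 bases before to 50 bases after the start of the gene, and Foxj1, Rsph1 and Rsph4a were unmatched. The paired X-box, searched as GTTGC, any 3 bases and then its reverse complement GCAAC, reads the same on both strands and lay in 5 of the 28 (17.9%), against 68 of 27025 genes in the set (0.252%). The half-site GTTGCC, on either strand, lay in 15 of the 28 (53.6%) against 14.1% of all genes, and can overlap the paired form. TGTTTAC, a core recognised by forkhead factors, the family of FOXJ1, was searched on either strand and lay in 2 of the 28 (Mlf1 and Ak7; 7.14%) against 4.05%. These 3 spellings were picked from 13 forms of the X-box and the forkhead core, after their counts were seen, and a match describes letters and not a bound site.

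Windows of 4 genes with the paired form are shown because they hold the most complete element, and Ccdc153 because it is a marker of the module. Each window is written 5′ to 3′ on the strand of its gene, with the motif in capitals.
Dnah7a, inner arm heavy chain, chr1:53706820-53706849, minus strand, motif from -57: gccagtttGTTGCTTAGCAACgaatcgacc
Dynlrb2, dynein light chain, chr8:116504956-116504985, plus strand, motif from -51: cctgcctgGTTGCCTAGCAACgggggaagc
Dnaic2, outer arm intermediate chain, chr11:114727378-114727407, plus strand, motif from -33: cggccaggGTTGCTAGGCAACtggtaaact
Tekt4, a tektin of the axoneme, chr17:25471546-25471575, plus strand, motif from -36: gtgaccctGTTGCTCAGCAACaggaggcag
Ccdc153, half-site only, chr9:44240513-44240542, plus strand, motif from -152: ctgagttttccaGTTGCCtggacaacgtgc
In all 5 windows the element starts before the RefSeq start of the gene, and the 4 paired forms start between -57 and -33.

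Both markers of the module were detected in each of the 30 libraries. Foxj1 (chromosome 11, 116330704 to 116335399, minus strand, GRCm38) ranged from 2.16 to 20.9 FPKM, that is, fragments scaled to the length of the transcript and to the mapped fragments of the library. Ccdc153 (chromosome 9, 44240676 to 44247306, plus strand), which codes for a coiled-coil protein typical of ependymal cells, ranged from 0.83 to 17 FPKM. No member was at 0 in any library. Of the 31 members, 17 had a mean of at least 1 FPKM and entered the test, and 14 lay below it. Since FPKM is scaled to length, a low value of a long transcript, such as Dnah1 (12872 bases), need not rest on few fragments. How precise the levels of these 14 are cannot be read from FPKM alone.

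By role, the 3 radial spoke genes all passed 1 FPKM, from Rsph4a at a mean of 1.81 FPKM to Rsph9 at 16, the highest mean of the module. Among the 5 outer arm genes, Dnah9 (1.73 FPKM) and the intermediate chain gene Dnaic2 (1.61) passed, and the 5 inner arm heavy chain genes in the table all stayed under the limit, between 0.0742 and 0.546 FPKM. Of the 6 genes of the central pair, Spag6, Ak7 and Spag16 passed, and Hydin, Spag17 and Spef2 did not. Of the pair that sets the 96 nm repeat of the axoneme, Ccdc39 had a mean of 3.6 FPKM and Ccdc40 of 0.687. Spag6 and Dnah7a have close copies in the mouse genome (Spag6l, and Dnah7b and Dnah7c), so reads may have been split between copies and their levels are uncertain.

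In VEH-HC mice Foxj1 ranged from 7.76 to 14.3 FPKM around a median of 12.7. VEH-T10 mice ranged from 4.86 to 12.3 (median 8.11) and Y397F-T10 mice from 3.42 to 19.4 (median 7.19). VEH-T3 mice ranged from 2.16 to 20.9 (median 10.3) and Y397D-T3 mice from 4.24 to 9.56 (median 7.53). The ranges of all 5 conditions overlapped, and VEH-T3 alone held both the lowest and the highest mouse of the study.

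Ccdc153 ranged from 4.3 to 11 FPKM in VEH-HC mice (median 7.24) and from 2.16 to 8.05 in VEH-T10 mice (median 6.37). Y397F-T10 mice ranged from 1.46 to 9.85 (median 5.94), VEH-T3 mice from 0.83 to 17 (median 6.97) and Y397D-T3 mice from 3.87 to 9.34 (median 5.77). By median both genes were highest in VEH-HC, followed by VEH-T3 and VEH-T10, and the mutant conditions came last, in opposite order for the 2 genes. No neighbours in either order were apart, since all ranges overlapped.

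**Figure D1:**
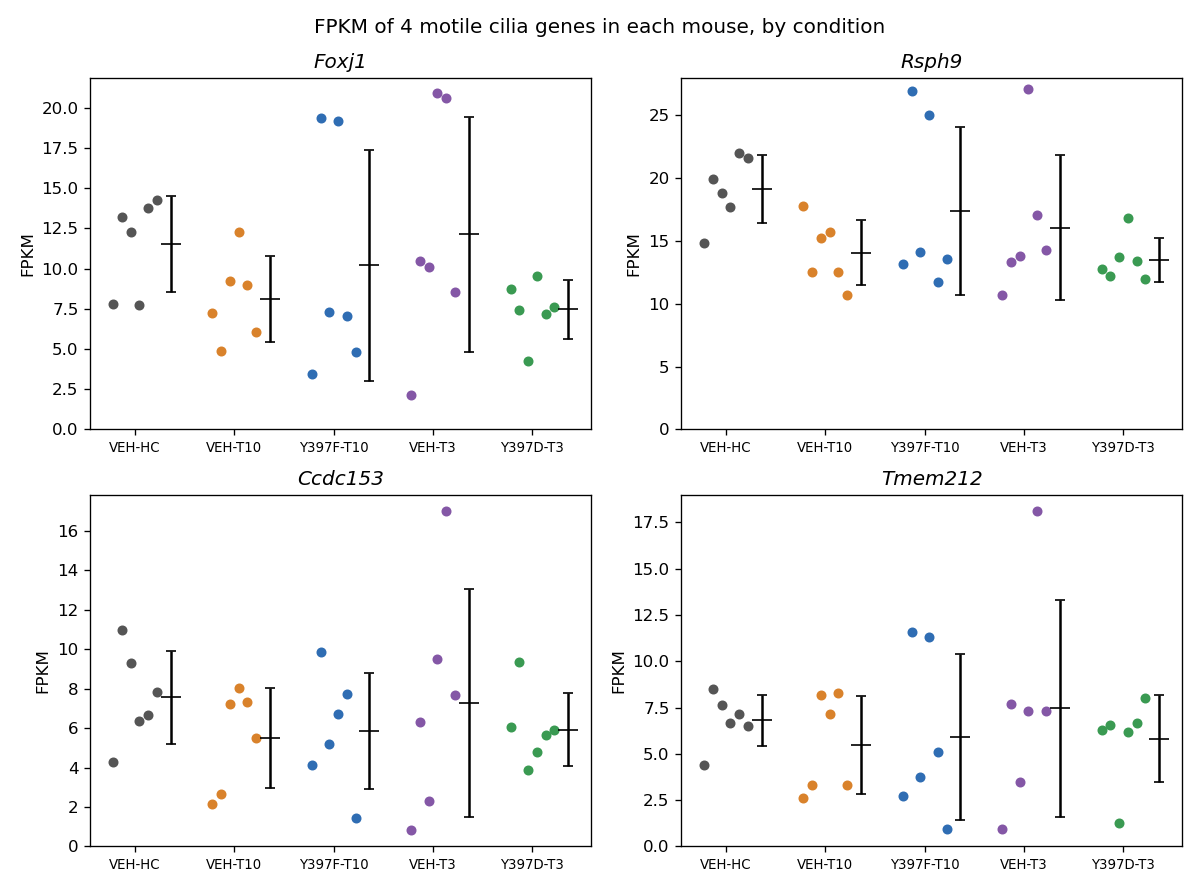
FPKM (vertical axis, from 0) of Foxj1, Rsph9, Ccdc153 and Tmem212 in each mouse (points) of the 5 conditions (horizontal axis), with the mean and SD of 6 mice beside them (black). For Foxj1, 2 mice of Y397F-T10 and 2 of VEH-T3 lie at 19.2 to 20.9 FPKM, above the other mice of the study, while the remaining mice of those conditions lie at or below 10.5.

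The 7 comparisons asked whether these genes differed with training or with a CREST mutant. In a limma fit over all 30 libraries on log2(FPKM + 1), no member passed an adjusted p of 0.05 (Benjamini-Hochberg over 13184 rows) in any of them. The 4 comparisons with VEH-HC use the same 6 control libraries and are not independent of each other. The members also followed each other over the libraries, with a median Pearson r of 0.71 over their pairs. Counts of estimates below 0 are therefore not counts of independent genes. The comparisons of Y397F-T10 and Y397D-T3 with VEH-HC change training and plasmid together. By the paper's methods home-cage mice were only handled, while mice in the task were first habituated to its chamber. All 4 comparisons with VEH-HC thus change habituation together with training. The vehicle held no DNA and no wild-type CREST was given, so effects of a mutation and of plasmid expression cannot be told apart.

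VEH-T10 against VEH-HC, the comparison for threshold training, called 0 of 17 members, with 0.819% of all tested rows called. All 17 estimates were below 0, with a median of -0.43 on the log2 scale against -0.025 for all tested rows, of which 59.7% were below 0. At an unadjusted p under 0.05, 2 members were lower (10.3% of all rows were). Rsph9, a radial spoke head protein, was at 14.1 ± 2.6 FPKM (SD, n = 6) against 19.1 ± 2.7, a log2 difference of -0.43 (SE 0.184, limma adjusted p = 0.269). Enkur, a protein inside the doublet microtubules, was at 1.83 ± 0.667 against 3.01 ± 0.691 FPKM (log2 difference -0.52, SE 0.239, limma adjusted p = 0.308). Foxj1 was at 8.11 ± 2.64 against 11.5 ± 2.98 FPKM, a log2 difference of -0.47 (SE 0.375, limma adjusted p = 0.602). The Foxj1 level of all 6 VEH-T10 mice lay below the VEH-HC median, but the ranges overlapped.

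VEH-T3 against VEH-HC, the comparison for subthreshold training, called 0 of 17 members where 5.17% of all tested rows were called. At an unadjusted p under 0.05, 0 members were lower or higher (13.8% and 7.79% of rows). Of the member estimates 15 were below 0 and 2 above, where 61.0% of all tested rows were below 0. The member median was -0.14 against -0.035 for all rows, and moved to 0.09 without VEH-T3 mouse 1 and to -0.37 without VEH-T3 mouse 4. Foxj1 averaged 12.1 ± 7.32 FPKM in VEH-T3, and its log2 difference of -0.14 (SE 0.375, limma adjusted p = 0.877) became 0.22 without VEH-T3 mouse 1.

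Y397F-T10 against VEH-HC called 0 of 17 members (1.13% of all tested rows), with 0 at an unadjusted p under 0.05 in either direction (11.4% of rows lower, 5.5% higher) and a median estimate of -0.29, which ranged from -0.53 (without Y397F-T10 mouse 2) to -0.14 (without Y397F-T10 mouse 6). Y397D-T3 against VEH-HC called 0 of 17 as well, in a comparison that called 7.07% of all tested rows. In the latter 16 of 17 estimates were below 0 (59.6% of all rows were), with a median of -0.47 against -0.034 for all rows. At an unadjusted p under 0.05, 4 members were lower (14.6% of all rows were).

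Those 4 were Rsph9, Rsph4a, Dnaic2 and Pifo. Rsph9 was at 13.5 ± 1.74 FPKM in Y397D-T3 (log2 difference -0.47, SE 0.184, limma adjusted p = 0.109). Rsph4a, another spoke head protein, was at 1.22 ± 0.296 against 2.28 ± 0.667 FPKM (log2 difference -0.55, SE 0.259, limma adjusted p = 0.186). Dnaic2 was at 1.2 ± 0.277 against 1.94 ± 0.644 FPKM (log2 difference -0.4, SE 0.187, limma adjusted p = 0.182). Pifo, a protein of the ciliary base, was at 1.14 ± 0.736 against 3.45 ± 2.17 FPKM, a log2 difference of -0.99 with an SE of 0.475 and a limma adjusted p of 0.195. Each of the 4, chosen here for a low p, was below the VEH-HC median in 6 of 6 mice. So were members with a larger p, among them Foxj1, Rsph1, Enkur and Ak7. For each of the 4 the ranges of the 2 conditions overlapped.

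The count for Y397D-T3 depended on which libraries set the spread. When only its 12 libraries were fitted, 4 members were called lower, Rsph9 (limma adjusted p = 0.00912), Rsph4a (0.022), Rsph1 (0.0307) and Enkur (0.0453), while that fit called 14.0% of all tested rows, and 8.8% lower. Rsph1, a further spoke protein, was at 5.16 ± 1.99 FPKM in Y397D-T3 and 9.19 ± 2.04 in VEH-HC, and in the fit of all libraries its log2 difference was -0.77 (SE 0.416, limma adjusted p = 0.25). Its medians were 9.79 FPKM for VEH-HC and 5.19 for Y397D-T3 mice, with 6.72 for VEH-T3, 6.63 for VEH-T10 and 3.98 for Y397F-T10 mice, and the ranges of all 5 conditions overlapped. Mice in VEH-HC and Y397D-T3 varied less than those in VEH-T3 and Y397F-T10: the SD of Foxj1 was 2.98 and 1.82 FPKM there against 7.32 in VEH-T3 and 7.17 in Y397F-T10. Without Y397F-T10 mouse 2 and VEH-T3 mouse 4, neither of them in the comparison, Rsph9 alone was called (limma adjusted p = 0.0368).

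Estimates for choroid plexus markers also had medians below 0 against VEH-HC, at -1.52 over 15 markers in VEH-T10, -0.7 in VEH-T3, -1.18 in Y397F-T10 and -2.03 in Y397D-T3. The summed level of these markers ranged from 943 to 5740 FPKM in VEH-HC mice, with a median of 3240. It ranged from 13.5 to 4590 in VEH-T10 mice (median 108) and from 31.7 to 10700 in Y397F-T10 mice (median 60.7). In VEH-T3 mice it ranged from 32.6 to 13100 (median 2010), and in Y397D-T3 mice from 18.1 to 2910 (median 132). None of the 15 was called in the 7 comparisons by limma. At an unadjusted p under 0.05, 13 were lower in Y397D-T3 than in VEH-HC (14.6% of all tested rows were) and 3 in VEH-T10 (10.3%). The part of choroid plexus tissue in the differences above was not tested.

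The mutants were next set against vehicle mice with the same training. Y397F-T10 against VEH-T10 called 0 members and 0.0% of all tested rows, and no tested member had an unadjusted p under 0.05 (1.84% of rows were lower and 1.94% higher at that level). The median estimate was 0.1, from -0.09 without Y397F-T10 mouse 2 to 0.24 without Y397F-T10 mouse 6. Foxj1 differed by 0.1 (SE 0.375, limma adjusted p = 1.0), which turned to -0.12 without Y397F-T10 mouse 2 or mouse 4. Y397D-T3 against VEH-T3 called 0 members (0.00758% of rows), with 16 of 17 estimates below 0 (49.1% of all tested rows were). The member median was -0.28 against 0.002 for all rows, and was -0.48 without VEH-T3 mouse 1 and -0.13 without VEH-T3 mouse 4. Foxj1 there differed by -0.42 (SE 0.375, limma adjusted p = 0.798), which was -0.78 without VEH-T3 mouse 1 and -0.22 without VEH-T3 mouse 4 or mouse 5. Ccdc153 differed by 0.06 (SE 0.406, limma adjusted p = 0.972), the one estimate above 0, which was -0.3 without VEH-T3 mouse 1.

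VEH-T10 against VEH-T3, the training lengths without a mutant, called 0 members against 0.0455% of rows. The median estimate was -0.27, from -0.49 without VEH-T3 mouse 1 to -0.07 without VEH-T3 mouse 4. Ccdc39, whose protein helps to set the 96 nm spacing of the dynein arms, was at 3.22 ± 0.544 FPKM in VEH-T10 and 4.07 ± 0.554 in VEH-T3 (log2 difference -0.27, SE 0.088, limma adjusted p = 0.448). It was also at 3.45 ± 0.41 in Y397D-T3, a log2 difference from VEH-T3 of -0.18 (SE 0.088, limma adjusted p = 0.628). These were the only tested members with an unadjusted p under 0.05 in those 2 comparisons, where 4.51% and 2.72% of rows were lower at that level.

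**Figure D2:**
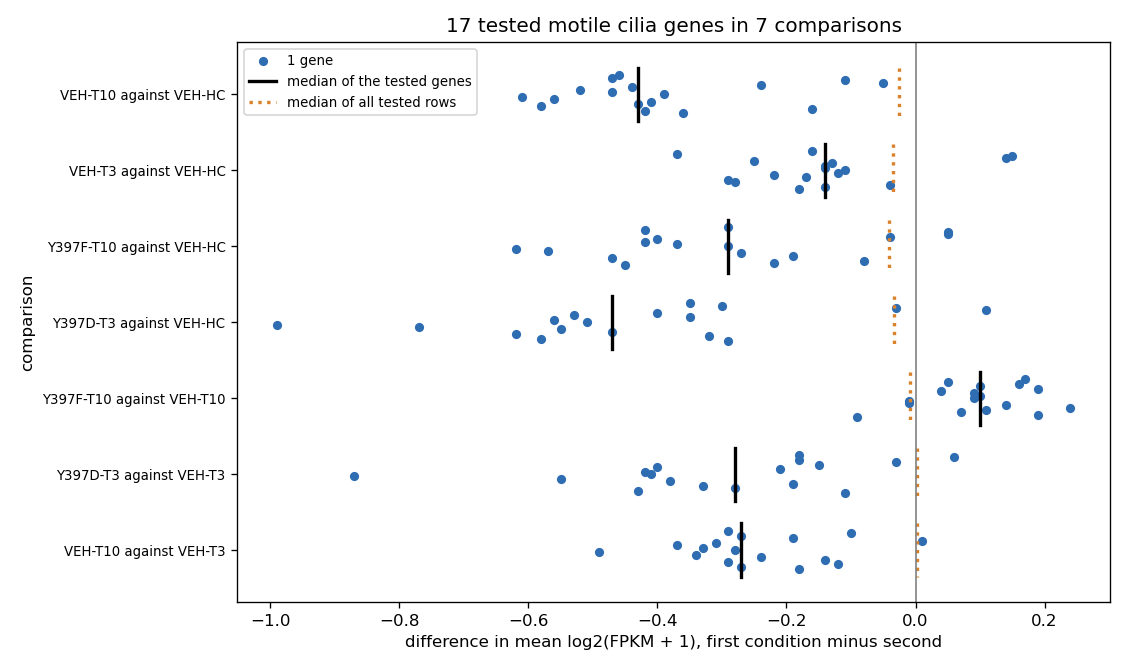
Difference in mean log2(FPKM + 1) (horizontal axis) of the 17 tested members (points) in 7 comparisons (vertical axis), with the median of the members (black bar) and of all 13184 tested rows (dotted bar). The member medians lie below 0 in all comparisons but Y397F-T10 against VEH-T10, where the median is 0.1 and falls to -0.09 without Y397F-T10 mouse 2, and VEH-T3 against VEH-HC turns to 0.09 without VEH-T3 mouse 1.

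The 14 members under 1 FPKM were read from a fit without the filter, over 18287 rows, in which 0 of the 31 members were called in any comparison by limma. That fit called 0.574% of rows in VEH-T10, 2.8% in VEH-T3, 0.678% in Y397F-T10 and 4.49% in Y397D-T3 against VEH-HC. It called 0.0% in both comparisons of a mutant with its vehicle condition and 0.0328% in VEH-T10 against VEH-T3. At an unadjusted p under 0.05 that fit had 3 of the 31 in VEH-T10 against VEH-HC (13.5% of its rows) and 5 in Y397D-T3 against VEH-HC (21.0%). It had 1 in VEH-T3 (17.8%) and 0 in Y397F-T10 (14.5%) against VEH-HC. It had 1 in Y397F-T10 against VEH-T10 (3.75%), 1 in Y397D-T3 against VEH-T3 (6.86%) and 4 in VEH-T10 against VEH-T3 (7.16%), the last being Ccdc39, Dnah5, Dnah7a and Spag17, all lower. Dnah1, an inner arm heavy chain, was at 0.471 ± 0.0263 FPKM in Y397D-T3 and 0.596 ± 0.0446 in VEH-HC, and the 6 mice of one condition all lay below the 6 of the other (limma adjusted p = 0.135). Rows without overlap in that direction made up 2.4% of all rows. In Y397F-T10, Dnah1 was at 0.633 ± 0.101 FPKM against 0.477 ± 0.0679 in VEH-T10 (log2 difference 0.14, SE 0.0456, limma adjusted p = 1.0). Dnah7a was at 0.0518 ± 0.0111 FPKM in VEH-T10 and 0.108 ± 0.0388 in VEH-T3, again without overlap (limma adjusted p = 0.517), in a comparison where 0.273% of rows were lower without overlap. In VEH-HC it was at 0.0674 ± 0.0281, below VEH-T3 with overlapping ranges (log2 difference 0.05, SE 0.0253, limma adjusted p = 0.258). Dnah5, an outer arm heavy chain, was at 0.34 ± 0.0455 FPKM in VEH-T10 and 0.498 ± 0.138 in VEH-T3 (limma adjusted p = 0.572). Spag17, a central pair protein, was at 0.125 ± 0.0509 and 0.22 ± 0.139 (limma adjusted p = 0.694), and for both genes the ranges overlapped.

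The members, like tested rows in general, differed far more between single mice than between conditions. For the 17 tested members, conditions accounted for 4.1% to 28.5% of the variance of log2(FPKM + 1), with a median of 13.2% against 17.6% over all tested rows. The SD within conditions had a median of 0.62 on the log2 scale against 0.14 for all tested rows, and 10 of the 17 lay above the 95th percentile of it. Pifo had the widest spread, with an SD of 0.86, and Ccdc39 the narrowest, with 0.15. Over the 30 libraries Pifo spanned 68.7-fold, Spag16 63.2-fold and Dnah11 53.3-fold from the lowest to the highest library, while Dnah1 spanned 1.92-fold and Ccdc39 1.98-fold.

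The high and low mice were largely shared between genes. Of the 31 members, 13 had their highest level in VEH-T3 mouse 4, 12 in VEH-T3 mouse 5 and 4 in Y397F-T10 mouse 2, and 17 had their lowest level in VEH-T3 mouse 1. The summed level of the members was 169 and 161 FPKM in VEH-T3 mice 4 and 5, and 167 in Y397F-T10 mouse 2. It was 31.7 in VEH-T3 mouse 1, so that the extremes of the study fell within one condition. The median FPKM of all tested rows was also lowest in VEH-T3 mouse 1 (9.08). It was 10.2 in VEH-T3 mouse 4 and 10.3 in VEH-T3 mouse 5 and Y397F-T10 mouse 2. By condition, the summed level ranged from 64.9 to 122 FPKM in VEH-HC, from 46.1 to 101 in VEH-T10 and from 45.4 to 79.7 in Y397D-T3.

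**Figure D3:**
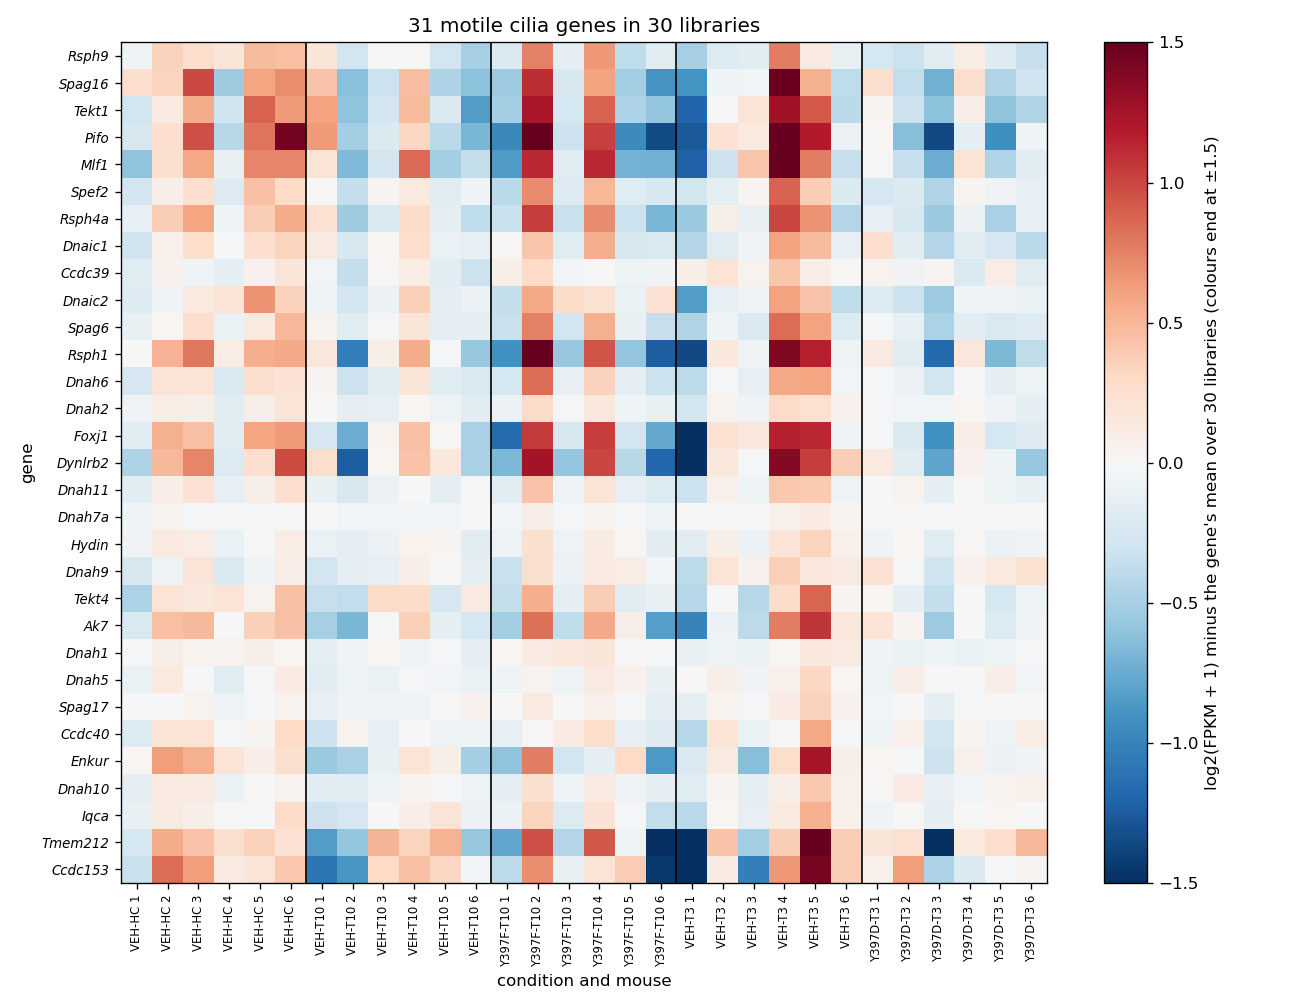
Log2(FPKM + 1) minus the mean of the gene over 30 libraries (colour, red above and blue below) for the 31 members (rows, ordered from those closest to choroid plexus markers to those closest to Ccdc153) in each library (columns, black lines between conditions). VEH-T3 mice 4 and 5 and Y397F-T10 mice 2 and 4 are red over most rows, and VEH-T3 mouse 1 is blue over most.

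The 465 pairs of members had a median Pearson r of 0.71 over the 30 libraries, from 0.14 to 0.95, against a median of 0.03 for pairs of tested rows. With the condition means removed, the median was 0.72. The libraries are shared by all these values, and their normalisation is too, so the correlations are descriptions and carry no p. Rsph1 (r = 0.97) and Foxj1 (0.96) were closest to the mean of the other members, and Ccdc39 (0.52) was furthest from it. The mean of the members also followed the median FPKM of all tested rows (r = 0.8) and, less, relative depth (r = 0.24). Library medians ran only from 9.08 to 10.3 FPKM, so centring each library on its median could move the estimates only a little. It left the member median at -0.39 in VEH-T10 and -0.43 in Y397D-T3 against VEH-HC, where it was -0.43 and -0.47 without centring.

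Members differed in how closely they followed 2 references, the mean of the 15 choroid plexus markers and Ccdc153. The references are not alike, since one is a mean of 15 genes and the other a single gene, so the larger r of a member is no class. Rsph9 had an r of 0.87 with the choroid markers and 0.43 with Ccdc153, Spag16 of 0.93 and 0.53, Tekt1 of 0.92 and 0.53, and Pifo and Mlf1 both of 0.9 and 0.55. At the other end Tmem212 had an r of 0.5 with the choroid markers and 0.88 with Ccdc153, Iqca of 0.51 and 0.88, Dnah10 of 0.47 and 0.83, and Enkur of 0.48 and 0.81. Many members lay between: Rsph1 had 0.88 and 0.71, Foxj1 0.82 and 0.75, and Ak7, an adenylate kinase of the axoneme, 0.69 and 0.89. Rsph1 and Ak7 followed the mean of the other members almost equally (0.97 and 0.95). Ccdc153 and the choroid markers had an r of 0.37 with each other, and these genes were picked after their values were seen.

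**Figure D4:**
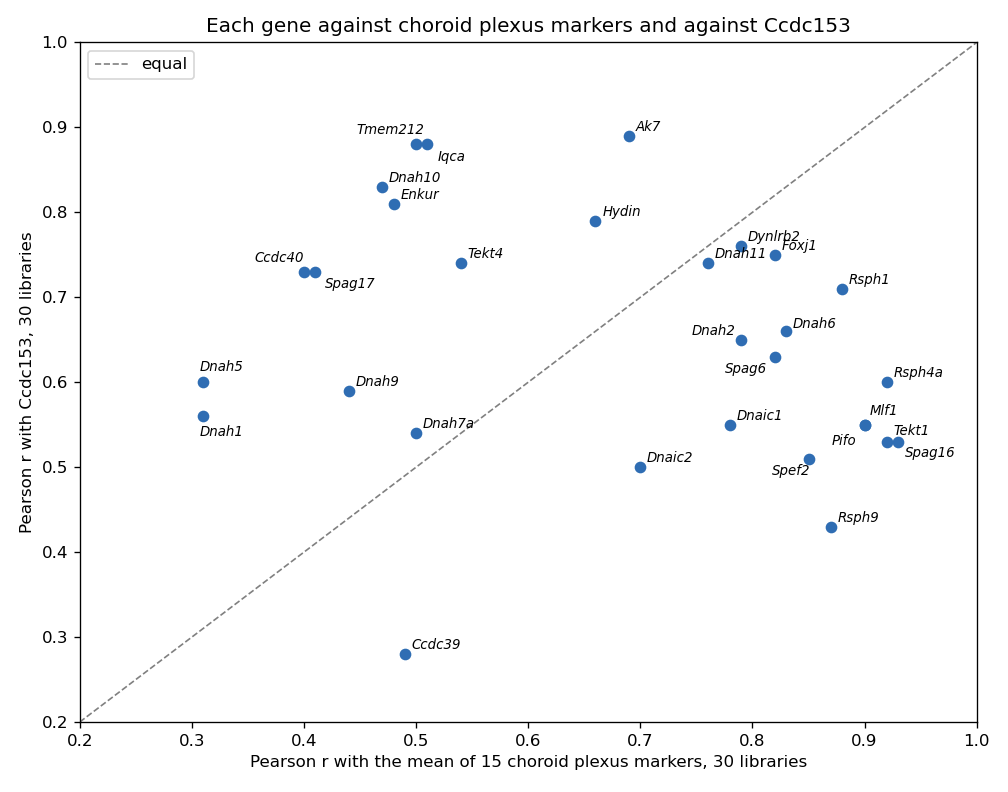
Pearson r of each member over 30 libraries with the mean of 15 choroid plexus markers (horizontal axis) and with Ccdc153 (vertical axis), with the line of equal r dashed. Spag16, Tekt1, Pifo, Mlf1 and Rsph9 lie at the lower right and Tmem212, Iqca, Dnah10 and Enkur at the upper left.

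Single mice show where the 2 references differed. Ttr, which codes for transthyretin and is the leading transcript of the choroid plexus, was at 4330 FPKM in VEH-T10 mouse 1, where Ccdc153 was at 2.16 and Foxj1 at 7.27 FPKM. In Y397D-T3 mouse 2, Ttr was at 24.4 FPKM, Ccdc153 at 9.34 and Foxj1 at 7.45. VEH-T3 mouse 5 had the highest Ccdc153 of the study, 17 FPKM, with Ttr at 2700, and VEH-T3 mouse 4 the highest Ttr, 12500, with Ccdc153 at 9.5. In VEH-T10 mouse 2, which had the lowest Ttr (5.89 FPKM), Foxj1 was still at 4.86 and Ccdc153 at 2.66 FPKM, so both markers were detected where Ttr was lowest.

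**Figure D5:**
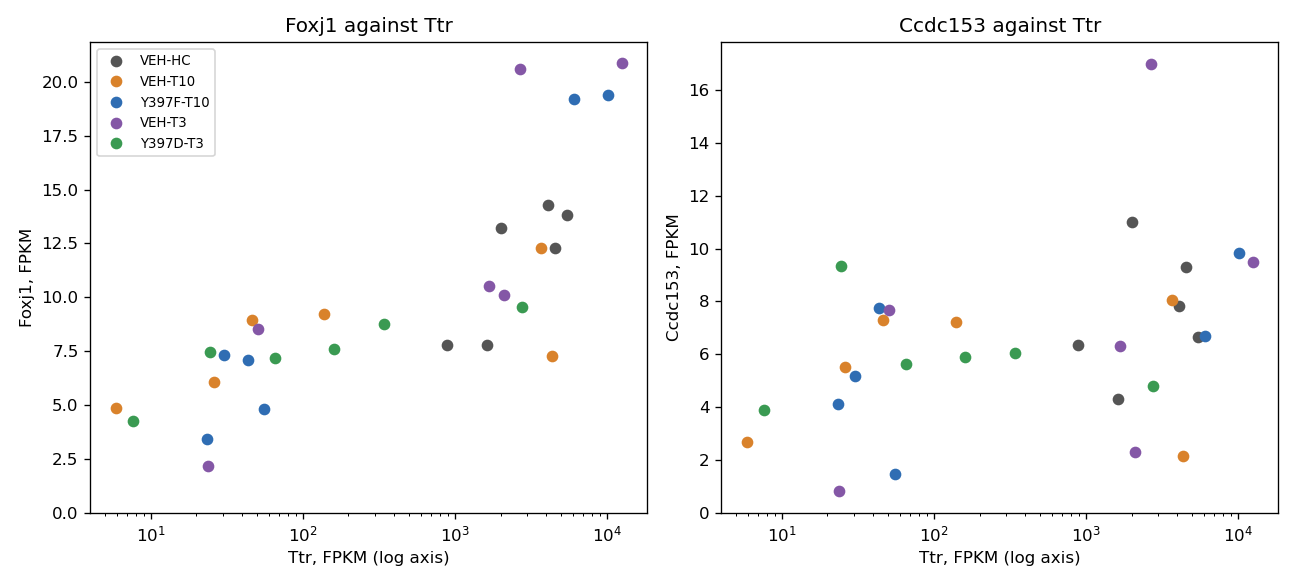
Foxj1 (left) and Ccdc153 (right) in FPKM (vertical axes, from 0) against Ttr in FPKM (horizontal log axes) in 30 libraries, coloured by condition. Foxj1 reaches 20.9 FPKM in the library with the highest Ttr, and Ccdc153 reaches 17 in a library with Ttr at 2700.

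Rows outside the module were ranked by how closely they followed it over the libraries. The 10 tested rows with the highest r with the mean of the members were Maats1 (0.965), 2410004P03Rik (0.95), Ttc21a (0.947), Ubxn10 (0.945), Lrrc23 (0.944), Cfap52 (0.941), Dnali1 (0.935), Capsl (0.93), Hdc (0.929) and Prkcq (0.928). The median r over the 13167 tested rows outside the module was 0.123, and its 99th percentile was 0.847. Of the 10, 5 were on a separate list of 93 further motile cilia genes. Maats1, Ttc21a, Ubxn10, Hdc, which codes for histidine decarboxylase, and Prkcq, a protein kinase C, were on none of the lists.

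Of the 93 further motile cilia genes, 83 had a row and 45 were tested, and their mean followed that of the members with an r of 0.99. None of the 45 was called by limma in any comparison, with medians of -0.27 in VEH-T10 and -0.31 in Y397D-T3 against VEH-HC. At an unadjusted p under 0.05, 6 of the 45 were lower in VEH-T10 (10.3% of all rows) and 7 in Y397D-T3 (14.6%). The 16 regulators of multiciliogenesis (9 tested) had 0 calls and medians between -0.06 and 0.01. Among 42 genes of the primary cilium, the single immotile cilium that neurons and glia carry, 1 was called, in a comparison that called 7.07% of all rows: Ift46, of the intraflagellar transport train, was at 7.74 ± 1.07 FPKM in Y397D-T3 and 9.35 ± 0.498 in VEH-HC (log2 difference -0.25, SE 0.0668, limma adjusted p = 0.0219). Ift46 falls outside the rule for naming genes and was named after its value was seen.

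Over all lists, the mean of the members had an r of 0.99 with the further motile cilia genes, 0.83 with choroid plexus markers, 0.8 with both the primary cilium genes and the regulators of multiciliogenesis, and 0.74 with meningeal fibroblast markers. It was 0.59 with oligodendrocyte, 0.53 with thalamus and 0.52 with CA2 and CA3 markers, 0.33 with subventricular neuroblast, 0.27 with endothelial and mural, 0.24 with dentate granule and 0.22 with microglia markers. It was 0.1 with astrocyte, -0.17 with deep cortical layer and -0.26 with CA1 pyramidal markers.

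Meninges, thalamus and the deep cortical layer, like the choroid plexus, lie next to the dorsal hippocampus, and some of their markers were called lower against VEH-HC. In Y397D-T3 against VEH-HC limma called 1 of 9 tested meningeal markers lower (Dcn), 2 of 6 thalamus markers (Slc17a6 and Tcf7l2) and 1 of 4 deep cortical markers (Ctgf), with list medians of -0.4, -0.31 and -0.48. That comparison called 7.07% of all tested rows. It also called Slco1a4, an endothelial marker, lower and Pou3f1, a CA1 pyramidal marker, higher. In VEH-T10 against VEH-HC (0.819% of all rows called) Slc17a6 and Ctgf were called lower. The medians there were -0.28, -0.25 and -0.63 for the meningeal, thalamus and deep cortical lists. In Y397F-T10 against VEH-HC (1.13% of all rows called) Slc17a6 was called lower. None of the meningeal, thalamus and deep cortical markers was called in VEH-T3 against VEH-HC (5.17% of all rows called), where their medians were -0.1, -0.06 and -0.52. In that comparison 2 endothelial and mural markers, Flt1 and Rgs5, were called higher (limma adjusted p = 0.0492 and 0.043). All these genes were named after their calls were seen, and the part of neighbouring tissue in the levels of the members was not tested.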

How the data were processed

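Per the submitters' notes, the authors used TopHat2 2.1.1, Cufflinks 2.2.1 and mm10, and their FPKM values were used as deposited, with 0 columns left out. Samples with an RNA integrity number of at least 7 were sequenced. FPKM holds no read totals, so absolute depth is unknown. Relative depth, from the steps of 2642 low rows, was 0.811 to 1.24 of the median library. No 2 libraries were identical.

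Conditions follow the sample labels. Rows whose mean FPKM reached 1 were tested on log2(FPKM + 1) with limma 3.58.1 (R 4.3.3) with a mean-variance trend over 30 libraries, adjusted by Benjamini-Hochberg, threshold 0.05. The fold changes understate those of low genes. The members and gene lists were chosen with earlier results of these data known. All members were accounted for: ranges by condition were given for Foxj1 and Ccdc153, values in the conditions compared for members called in an alternative or with an unadjusted p under 0.05, the rest by role, and the 10 nearest rows by r. The members with an unadjusted p under 0.05, the genes of extreme spread and the mice cited singly were chosen after their values were seen. Gene positions are from GENCODE M21. One promoter window is not reported here. Alternatives were another pseudocount, no filter, centring, 12 libraries, a replicate block, summed symbols and each library left out. Leaving out the pair of high-Ttr libraries was added after seeing the data.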

Additional observations from a re-analysis of the deposited data

Results flagged for a closer look

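The groups checked were 60 groups of 6 mice, 1 for each condition of Tmem212 and of the members with a printed comparison, without Dnah5 and Spag17. Of these, 4 held a mouse far from the other 5, by a gap of more than 0.625 of the whole range, and chance gives about 1 in 20. Dnaic2 was at 2.24 FPKM in VEH-T10 mouse 4, above the others of its condition. Enkur was at 6.65 FPKM in VEH-T3 mouse 5, and Rsph9 at 16.8 FPKM in Y397D-T3 mouse 4, both the highest of their condition. Tmem212 was at 1.26 FPKM in Y397D-T3 mouse 3, below the others. Outside the groups checked, Dnah5 at 0.757 FPKM in VEH-T3 mouse 5 and Spag17 at 0.0496 FPKM in Y397D-T3 mouse 3 also passed that gap.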

How the results depend on the processing

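The count of called members was 0 in all 7 comparisons with a pseudocount of 0.1, without the filter, with libraries centred on their median, with rows of a symbol summed, with a replicate block and with each of 30 libraries left out in turn (0 to 0). Fitting only the 12 libraries gave 4 in Y397D-T3 against VEH-HC and 0 in the others, and leaving out Y397F-T10 mouse 2 and VEH-T3 mouse 4, an alternative chosen after seeing the data, gave 1 there. The unadjusted p gave 2 in VEH-T10 against VEH-HC, 4 in Y397D-T3 against VEH-HC, 1 in Y397D-T3 against VEH-T3 and 1 in VEH-T10 against VEH-T3.

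The replicate block gave 0 called members in each comparison. Numbers name different mice and do not pair them: the correlation of same-numbered libraries had a median of 0.0416 over 60 pairs, from -0.496 to 0.84, and 8 of 30 libraries were closest to their own number.

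Small differences turned when 1 library was left out. Over the 30 libraries left out in turn, Foxj1 ranged from -0.34 to 0.22 in VEH-T3 against VEH-HC and from -0.12 to 0.32 in Y397F-T10 against VEH-T10. Ccdc153 ranged from -0.14 to 0.31 in Y397F-T10 against VEH-T10, from -0.3 to 0.36 in Y397D-T3 against VEH-T3 and from -0.47 to 0.19 in VEH-T10 against VEH-T3. Leaving out the high-Ttr pair turned Foxj1 to -0.12 and Ccdc153 to -0.11 in Y397F-T10 against VEH-T10, and Ccdc153 to 0.04 in VEH-T10 against VEH-T3. The cause was not tested. Without turning, Foxj1 ranged from -0.78 to -0.22 in Y397D-T3 against VEH-T3, from -0.69 to -0.13 in VEH-T10 against VEH-T3 and from -0.59 to -0.15 in Y397F-T10 against VEH-HC. The median of the members ranged from -0.55 to -0.33 in VEH-T10 and from -0.54 to -0.39 in Y397D-T3 against VEH-HC. How precise the members under 1 FPKM are cannot be read from FPKM, since absolute depth is unknown.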
